A study of Mus musculus with 6 samples.

Results

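The 37 genes described here encode subunits of the mouse proteasome, out of 32285 genes counted. They were taken by symbol: the 7 alpha subunits Psma1 to Psma7, the 10 beta subunits Psmb1 to Psmb10, the 6 ATPases Psmc1 to Psmc6, 11 non-ATPase subunits of the 19S cap (Psmd genes) and the activator genes Psme1, Psme2 and Psme3. No threshold on a measured value was applied, but the list was drawn up with earlier results of these data known. Each symbol matched 1 gene. Within the list, Psmb8, Psmb9, Psmb10, Psme1 and Psme2 are known to be induced by interferon gamma, and they are set against the other 32 members.

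The proteasome degrades ubiquitin-tagged proteins in a 20S barrel, in which rings of alpha subunits enclose rings of beta subunits, and a 19S cap unfolds the substrate with its ATPases. Psmb5, Psmb6 and Psmb7 carry the cutting sites in most tissues. In cells of the immune system and under interferon gamma they are replaced by the immunosubunits: Psmb8 in place of Psmb5, Psmb9 in place of Psmb6 and Psmb10 in place of Psmb7. Psme1 and Psme2 form the PA28 alpha-beta cap, Psme3 the related nuclear PA28 gamma cap, and the resulting immunoproteasome is known for supplying peptides to MHC class I.

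The measurements were single-cell RNA counts of leukocytes sorted from mouse colon tumours, SOX17KO against Control, where SOX17 is a transcription factor studied for a role in immune evasion of early colorectal tumours. The sort kept cells negative for the dead-cell dye 7-AAD and for the epithelial antigen EpCAM and positive for the leukocyte antigen CD45, so the tumour cells themselves were not measured. Each genotype had 1 library in each of 3 collections: 1 pair whose labels state no time (the untimed pair), 1 pair at 1 week and 1 pair at 2 weeks. The series text says that 5 mice were pooled per condition. The labels name the genotypes SOX17KO and Control only, and give no allele, age, sex or strain.

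The matrices held 29086439, 52150180 and 18281322 unique molecular identifiers (UMIs, each standing for 1 captured transcript) in the SOX17KO libraries of the untimed, 1-week and 2-week collections, against 45533699, 37262312 and 27816981 in the Control libraries. After filtering, 6382, 7309 and 3013 SOX17KO cells and 6883, 5492 and 4783 Control cells remained. Their median UMIs per cell were 3102, 6132 and 4634 in SOX17KO and 4189, 5753.5 and 4162 in Control. The part of this depth in the genotype differences was not tested. Each pair of libraries shared 4 to 13 cell barcodes. Ptprc, which encodes CD45, had 31112 to 50250 UMIs in the SOX17KO and 33996 to 68776 in the Control libraries. Epcam had 71 to 212 UMIs in SOX17KO and 79 to 827 in Control. Sox17 had 3 to 20 UMIs in SOX17KO and 7 to 10 in Control, too few in sorted leukocytes to check the genotype label. The untimed pair stood apart: T cells made up most of its cells, and Psme2 and Psmb10 were lower in both of its libraries than in any other.

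Cells were put into classes by counting markers per cell, a method that used none of the 37 genes. Names of classes rest on mRNA only, and fibroblast-marked cells appeared although CD45 had been used for the sort.

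Most of the interferon-inducible members sit in pairs on the genome. Psmb9 (chr17:34181987-34187764, minus strand, mm10) and Psmb8 (chr17:34197721-34201454, plus strand) flank Tap1 (chr17:34187553-34197225, plus strand), a peptide transporter gene, within the MHC region. Psme1 (chr14:55578123-55581529, plus strand) and Psme2 (chr14:55587441-55591113, minus strand) are neighbours as well, and Psmb5 (chr14:54614119-54618022, minus strand) lies on the same chromosome. Psmb10 is at chr8:105935735-105938444 on the minus strand. Psmb6 is at chr11:70525367-70527858 on the plus strand. Psme2 has a near-identical retrogene copy, Psme2b (chr11:48945354-48946190), with 206, 1436 and 535 UMIs in SOX17KO and 624, 1090 and 666 in Control, so the split of reads between the 2 genes is uncertain.

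Promoter windows of 300 bases (250 before to 50 after the start) were given by RefSeq for 31 of the 37 members. They were searched on both strands for 4 motifs tied to interferon or to proteasome upkeep. The interferon-stimulated response element core (GAAA, NN and GAAA joined) lay in 3 member windows (Psmb3, Psmd4 and Psme1) and in 3.44% of 32851 windows genome-wide. The gamma-activated site TTCNNNGAA lay in 2 (Psmb8 and Psmd2), against 8.3% genome-wide. The antioxidant response element core TGACNNNGC lay in 4 (Psmb5, Psmb6, Psmc6 and Psmd12), against 12.4%. The CCAAT box lay in 12 member windows, of which Psmb9 was the only interferon-inducible one, against 37.4%. The only overlap between matches in member windows was of CCAAT boxes on opposite strands in Psmd14, and a match describes letters only. The stretches show the immunosubunits Psmb8 and Psmb9, the activator Psme1 and the constitutive counterparts Psmb5 and Psmb6, since the results turn on these genes; all are from RefSeq, GRCm38.p6, 5′ to 3′ on the gene's strand, with the motif in capitals. The Psmb8 stretch (chr17:34198088-34198117, plus strand) holds the gamma-activated site, the Psmb9 stretch (chr17:34187321-34187350, minus strand) a CCAAT box and the Psme1 stretch (chr14:55578493-55578522, plus strand) the interferon-stimulated core; GENCODE M21 places all 3 motifs in a UTR of a transcript of that gene. The Psmb5 stretch (chr14:54618023-54618245, minus strand) and the Psmb6 stretch (chr11:70525107-70525356, plus strand) lie outside the annotated exons of their own gene, and each holds the antioxidant response element core. Exons of neighbouring genes were not searched for these stretches.
Psmb8 site: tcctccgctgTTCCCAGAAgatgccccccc
Psmb9 site: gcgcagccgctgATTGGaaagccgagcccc
Psme1 site: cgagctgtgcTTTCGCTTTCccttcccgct
Psmb5: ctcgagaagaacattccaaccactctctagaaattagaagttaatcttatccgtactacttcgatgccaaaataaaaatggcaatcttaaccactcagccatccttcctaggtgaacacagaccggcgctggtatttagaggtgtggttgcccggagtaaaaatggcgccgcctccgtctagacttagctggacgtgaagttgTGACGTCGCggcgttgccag
Psmb6: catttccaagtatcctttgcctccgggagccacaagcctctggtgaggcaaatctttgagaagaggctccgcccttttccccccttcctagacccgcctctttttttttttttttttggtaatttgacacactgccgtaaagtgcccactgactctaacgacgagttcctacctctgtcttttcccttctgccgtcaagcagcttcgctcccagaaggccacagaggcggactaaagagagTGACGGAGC

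In all cells together, the immunosubunits were lower in the SOX17KO library of every collection, with the widest gap in the untimed pair and the narrowest at 1 week. Psmb8, the immunosubunit with the most UMIs, had 276, 739.9 and 332 CPM (UMI counts scaled to a common total in each library) in SOX17KO (untimed, 1 week, 2 weeks), against 609, 881 and 473 CPM in Control. Psmb9 had 106, 329 and 228 CPM in SOX17KO and 245, 384 and 319 CPM in Control. Psmb10 had 54.5, 369.9 and 124 CPM in SOX17KO and 116, 419.9 and 153 CPM in Control. For all 3 genes SOX17KO was below Control within each collection, while the ranges of the genotypes overlapped across collections, since both 1-week libraries were the highest. In a sum over mixed cells, fewer cells of a class and less RNA per cell cannot be told apart.

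The PA28 genes showed the same order with unlike gaps. Psme2 had 19.4, 405 and 201 CPM in SOX17KO and 87.8, 449 and 273 CPM in Control, which gave log2 ratios of -2.18 (95% exact interval -2.31 to -2.05), -0.15 (-0.18 to -0.12) and -0.44 (-0.50 to -0.38). Psme1 had 169, 574 and 409 CPM in SOX17KO and 300.1, 606 and 424 CPM in Control. Psme1 was thus close between the genotypes at 1 week and 2 weeks, with log2 ratios of -0.08 (-0.10 to -0.05) and -0.05 (-0.09 to -0.01). Psme3, which interferon gamma is not known to induce, had 28.6, 32.3 and 32.4 CPM in SOX17KO and 27.9, 32.1 and 41.4 CPM in Control, so its levels were nearly level in 2 of 3 collections. These intervals cover counting error only, not the spread between animals.

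The constitutive catalytic subunits were lower in SOX17KO as well, and at 2 weeks by about as much as the immunosubunits (log2 ratio of summed CPM -0.48, against -0.47). Psmb5 had 72.1, 168 and 87.5 CPM in SOX17KO and 126, 184 and 129 CPM in Control. Psmb6 had 82.2, 201 and 94.2 CPM in SOX17KO and 120.4, 220.2 and 135 CPM in Control. Psmb7 had 64.6, 127 and 87.0 CPM in SOX17KO and 87.9, 139 and 111 CPM in Control. All 3 were below Control within each collection, and again the 1-week libraries were the highest of either genotype.

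**Figure D1:**
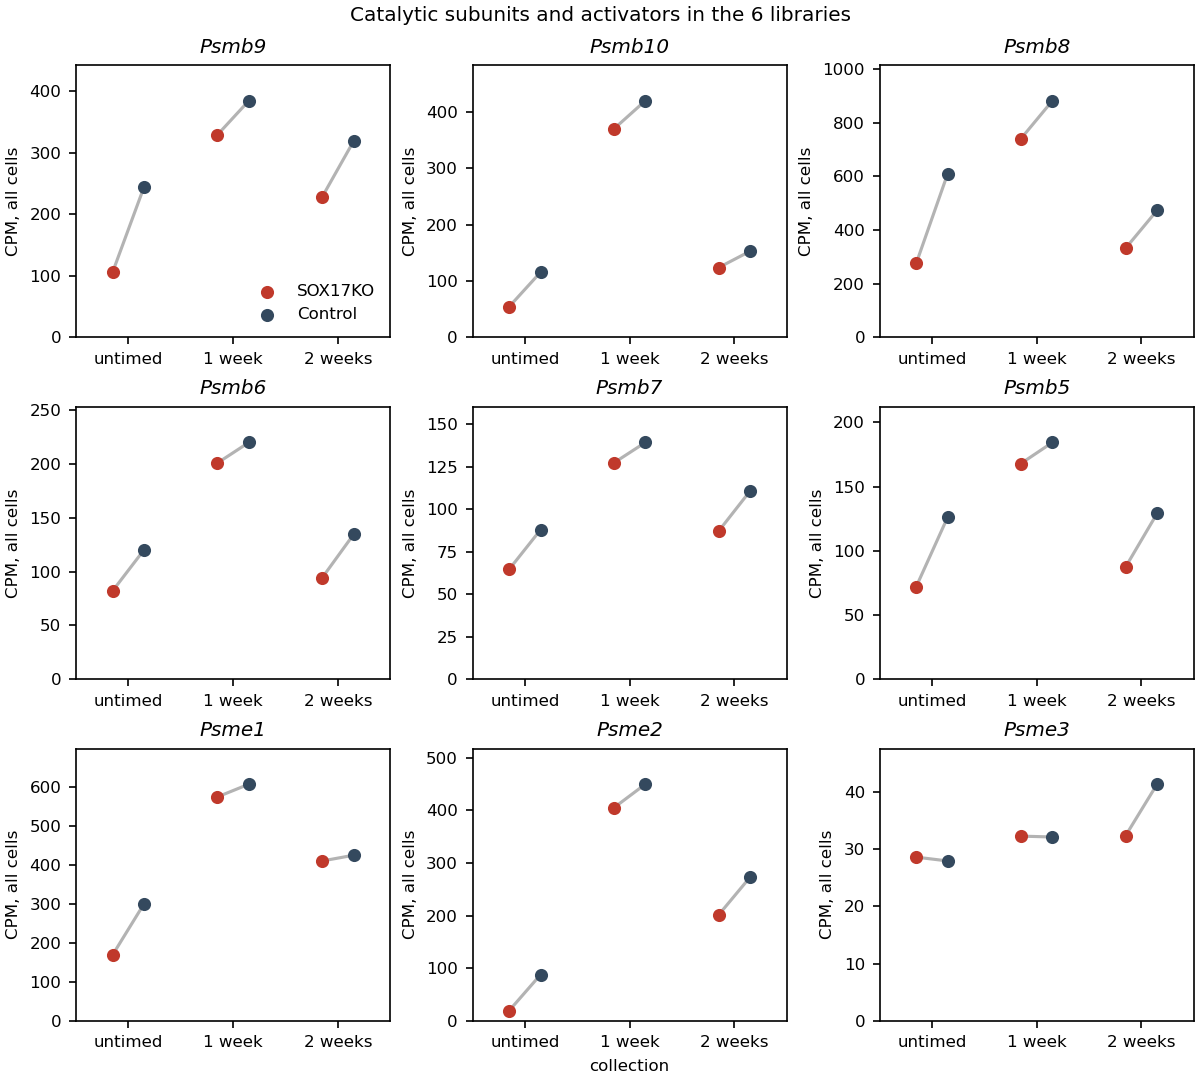
CPM over all cells (vertical axis) of the 3 immunosubunits, their constitutive counterparts and the 3 activators in the SOX17KO (red) and Control (dark) library of each collection (horizontal axis), joined by a line, 1 library per point. SOX17KO lies below Control in every collection for each gene shown except Psme3, whose untimed values were 28.6 and 27.9 CPM and whose 1-week values were 32.3 and 32.1 CPM.

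The direction was shared by nearly all members. In all cells, 35 of 37 members were lower in SOX17KO in each of the 3 pairs, as were 17.2% of the 15915 genes tested. The exceptions were Psmd2, a scaffold subunit of the 19S base, and Psme3. Summed over all 37 members, the level was 3034, 7740.0 and 4529 CPM in SOX17KO and 4878, 8364 and 5664 CPM in Control. The 5 interferon-inducible members had median log2 ratios of -1.14, -0.18 and -0.44 by collection, and the 32 others -0.53, -0.08 and -0.31, beside medians over all genes of -0.12, 0.02 and 0.02.

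By role, the gap was not even. In the untimed pair the log2 ratio of summed CPM was -1.15 for the immunosubunits and -0.94 for the activators, then -0.71 for the alpha ring, -0.61 for the constitutive catalytic subunits, -0.57 for the other beta subunits, -0.44 for the 19S ATPases and -0.39 for the other 19S subunits. At 2 weeks the order differed: -0.48 for the constitutive catalytic subunits, -0.47 for the immunosubunits, -0.37 for the alpha ring, -0.34 for the other beta subunits, -0.21 for the ATPases and -0.20 for both the other 19S subunits and the activators. At 1 week all 7 values lay between -0.23 for the immunosubunits and -0.06 for the other beta subunits. Among the alpha subunits, which form the outer rings and the gate of the barrel, Psma2 had 119, 319 and 154 CPM in SOX17KO and 225, 348 and 235 CPM in Control. Psma7 had 154, 574 and 277 CPM in SOX17KO and 260.5, 585 and 364 CPM in Control. Among the ATPases, Psmc4 had 29.8, 69.1 and 36.1 CPM in SOX17KO and 53.2, 79.0 and 49.3 CPM in Control, a wider untimed gap than that of Psmc1, with 34.0, 59.3 and 46.5 CPM in SOX17KO and 40.1, 60.2 and 50.0 CPM in Control.

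None of these differences passed the test across collections. In edgeR's quasi-likelihood test on summed UMIs, with collection as a term, 0 of 37 members were called in all cells at an adjusted p under 0.05, as were 0% of all genes, and DESeq2 called 0 members. At an unadjusted p under 0.05 edgeR had 9 members, 2 of them interferon-inducible (Psmb8 and Psmb9), and 793 of all 15915 genes. The fitted log2 fold change was -0.60 for Psmb8 (standard error 0.19, derived from the F statistic), -0.60 for Psmb9 (0.20), -0.49 for Psmb10 (0.20), -0.28 for Psme1 (0.18) and -0.87 for Psme2 (0.42), with edgeR adjusted p-values of 0.75. The fitted median was -0.60 over the 5 and -0.27 over the 32 others, beside 0.01 over all genes. Without the untimed pair it was -0.32 over the 5 and -0.22 over the others. The p-values measure the spread among 3 pairs of libraries.

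T cells also had less immunosubunit mRNA in SOX17KO. They numbered 4113, 155 and 728 in SOX17KO and 3681, 124 and 2014 in Control, and 24 of 37 members were lower in SOX17KO in every pair, as were 15.7% of genes. Psmb8 had 273, 634 and 265 CPM in SOX17KO T cells and 609, 840.0 and 380.0 CPM in Control T cells. Psmb9 had 101, 268 and 188 CPM in SOX17KO T cells and 247, 296 and 273 CPM in Control T cells. Psmb10 had 51.2, 245 and 76.3 CPM in SOX17KO T cells and 110.5, 299 and 98.1 CPM in Control T cells. Each of these immunosubunits was below Control in every pair, and the 1-week interval of Psmb9 spanned 0 (log2 ratio -0.15, -0.37 to 0.08). Psme1 was not lower in every pair: at 1 week it had 554.5 CPM in SOX17KO and 518 CPM in Control T cells, a log2 ratio of 0.10 (-0.07 to 0.26). Psme3 went the other way at 1 week, with 55.6 CPM in SOX17KO and 27.0 CPM in Control T cells.

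The share of T cells in cycle, by 8 proliferation genes, also differed between libraries: 3.79%, 16.1% and 22.8% in SOX17KO and 15.1%, 12.1% and 30.0% in Control. In non-cycling T cells, a comparison added after the data were seen, 24 members were lower in SOX17KO in every pair (17.2% of genes), and the fitted medians were -0.63 over the 5 interferon-inducible members and -0.25 over the others, against -0.66 and -0.30 in all T cells. Without the untimed pair these medians were -0.38 and -0.19 in non-cycling T cells and -0.36 and -0.20 in all T cells. By edgeR 0 of 37 members were called in T cells and 0% of genes, while 15 members, 4 of them interferon-inducible, and 968 of 12507 genes had an unadjusted p under 0.05; DESeq2 called 0 members. The fitted log2 fold change was -0.69 for Psmb8 (standard error 0.17), -0.58 for Psmb10 (0.17) and -0.59 for Psmb5 (0.16), each with an edgeR adjusted p of 0.61. Without the filter on low counts, 3 members were called, all interferon-inducible, among 508 of 23213 genes.

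In dendritic cells, which had the highest levels, all 5 interferon-inducible members were lower in SOX17KO in each pair, among 21 of 37 members (14.1% of genes). Psmb8 had 553, 1293 and 657 CPM in SOX17KO and 1142, 1570.0 and 911 CPM in Control dendritic cells. Psme2 had 34.4, 530.0 and 325 CPM in SOX17KO and 167.5, 663 and 492 CPM in Control dendritic cells. For both genes the genotypes overlapped across collections and SOX17KO was the lower within each. The class pools cDC1, cDC2 and mature DC, which were unlike in number in the untimed pair. There SOX17KO held 72, 21 and 26 of them, against 84, 78 and 76 in Control, and the part of this mix was not tested. Psme3 lay close between the genotypes, with 31.2, 35.9 and 36.1 CPM in SOX17KO and 32.3, 32.8 and 36.4 CPM in Control dendritic cells. The fitted log2 fold change was -0.64 for Psmb8 (standard error 0.17), -0.58 for Psmb9 (0.16), -0.68 for Psmb10 (0.17), -0.29 for Psme1 (0.14) and -0.97 for Psme2 (0.33), each with an edgeR adjusted p of 0.643. By edgeR 0 members and 0% of genes were called, DESeq2 called 0 members, and 15 members had an unadjusted edgeR p under 0.05, as did 7.38% of genes. Without the filter on low counts 5 members were called, 4 of them interferon-inducible, among 307 of 18398 genes.

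In monocytes and macrophages the gap was widest in the untimed pair, where the genotypes held unlike cells: 27 monocytes and 61 macrophages in SOX17KO, against 244 monocytes and 6 macrophages in Control. There the 5 interferon-inducible members summed to 599 CPM in SOX17KO and 1097 CPM in Control, a log2 ratio of -0.87 (-1.08 to -0.68), and the part of this mix was not tested. At 1 week, with 4226 SOX17KO and 3329 Control cells, the 5 summed to 2529 CPM in SOX17KO and 2753 CPM in Control, a log2 ratio of -0.12 (-0.14 to -0.11). At 2 weeks the sums were 1658 CPM in SOX17KO and 2312 CPM in Control, a log2 ratio of -0.48 (-0.52 to -0.44). The 5 were lower in SOX17KO in every pair, among 22 of 37 members (13.2% of genes). Psmc1 was the one member higher in SOX17KO in each pair (18.4% of genes), with 46.3, 62.4 and 51.4 CPM in SOX17KO and 41.5, 61.4 and 46.6 CPM in Control. By edgeR 0 members and 0% of genes were called, DESeq2 called 0 members, and 4 members (Psmb8, Psmb9, Psmb10 and Psmc4) had an unadjusted edgeR p under 0.05, as did 1.48% of genes. Without the untimed pair the fitted median over the 5 was -0.34, against -0.59 with it.

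NK cells and B cells had fewer cells, and the interferon-inducible members were again the lower ones in SOX17KO. In NK cells (36, 190 and 180 in SOX17KO and 276, 165 and 220 in Control), the 5 genes were lower in SOX17KO in every pair, among 22 of 37 members (14.2% of genes). All 5 had an unadjusted edgeR p under 0.05 there, among 9 members (4.65% of genes), with fitted log2 fold changes from -0.43 for Psme1 to -0.79 for Psmb9. None was called by edgeR (adjusted p 0.603 for Psmb8), which called 0.0888% of genes, or by DESeq2. In B cells (308, 25 and 182 in SOX17KO and 265, 21 and 20 in Control), 34 members passed the expression filter, 0 were called by edgeR or DESeq2, as were 0% of genes by edgeR, and 4 had an unadjusted edgeR p under 0.05 (4.01% of genes). The fitted medians were -0.69 over the 5 and -0.04 over the other members tested, beside 0.01 over all genes. Psmb9 in B cells had 72.8, 204 and 139.7 CPM in SOX17KO and 118, 461.5 and 284 CPM in Control, with a fitted log2 fold change of -0.96 (standard error 0.25, edgeR adjusted p 0.607). In B cells 8 members were lower in SOX17KO in every pair, 4 of them interferon-inducible (10.2% of genes), and 5 were higher in every pair (16.1% of genes).

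Among T cell classes, CD8 T cells could be compared in 2 pairs and regulatory T cells in 3. The fitted medians were -0.77 over the 5 interferon-inducible members and -0.31 over the others in CD8 T cells, and -0.73 and -0.39 in regulatory T cells. In CD8 T cells 29 of 37 members were lower in SOX17KO in both pairs (33.6% of genes). In regulatory T cells 20 members were lower in every pair (15.0% of genes). By edgeR 0 members were called in CD8 T cells (0% of genes) and 0 in regulatory T cells (0.116% of genes), DESeq2 called 0 in both, and 10 members in CD8 T cells (8.12% of genes) and 5 in regulatory T cells (7.80% of genes) had an unadjusted edgeR p under 0.05. Without cycling cells, CD8 T cells had 31 members lower in both pairs (30.8% of genes) and 0 called (0.133% of genes), with 11 members at an unadjusted edgeR p under 0.05 (8.75% of genes) and 0 called by DESeq2.

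**Figure D2:**
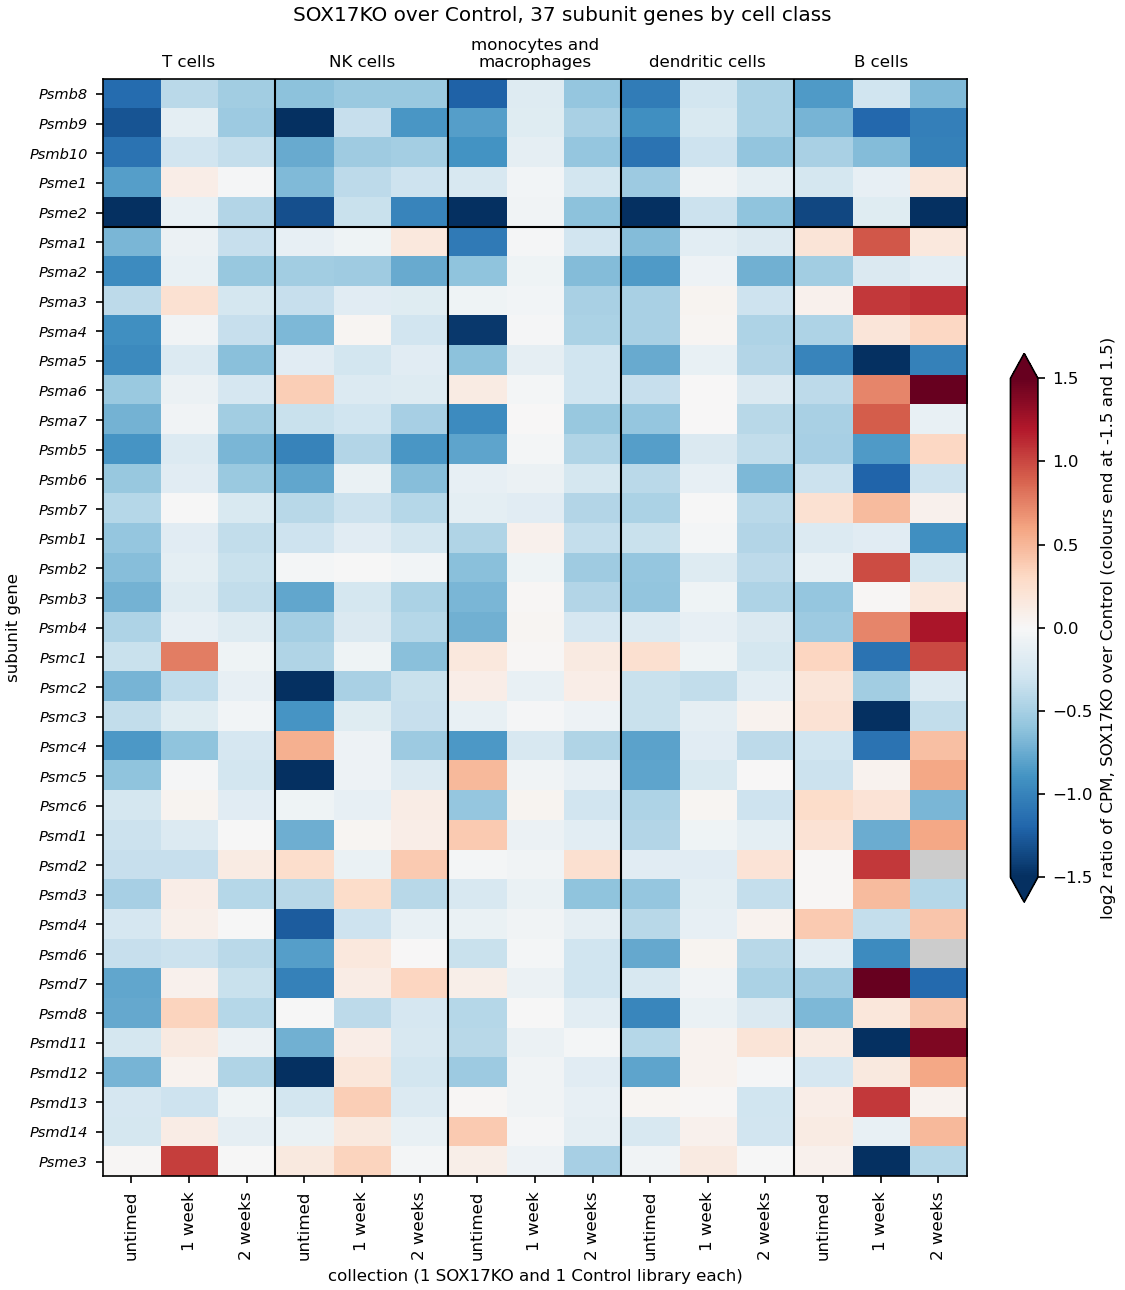
Log2 ratio of CPM, SOX17KO over Control, for the 37 genes (rows) in 5 cell classes and 3 collections (columns, 1 SOX17KO and 1 Control library each), blue where SOX17KO was lower and grey where a library had no UMI. The rows above the black line are the 5 interferon-inducible members, blue in the untimed column of each class, while the rows below vary more, most of all in B cells, where the 1-week libraries had 25 and 21 cells.

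Other genes that serve the proteasome, or act beside it, had smaller fitted differences in all cells. Of 20 listed assembly and accessory genes, such as the chaperone gene Pomp and the regulators Nfe2l1 and Nfe2l2, 18 were tested, of which 8 had values above 0 and 10 below, with a median of -0.09. Of 11 peptide-loading and MHC class I genes, such as Tap1 and B2m, 2 had values above 0 and 9 below, with a median of -0.10. Of 11 genes of interferon-gamma signalling and response, such as Cxcl9 and Irf1, 7 had values above 0 and 4 below, with a median of 0.05. None of the 3 lists held a called gene in all cells. The interferon-gamma list ran both ways by class. In dendritic cells 9 of its 11 genes had values below 0, with a median of -0.45, and in NK cells 1 of 10 tested was called lower in SOX17KO, with a median of -0.35. In CD8 T cells 9 of 11 had values above 0, with a median of 0.18, and in T cells 7 of 11, with a median of 0.07. Without cycling cells, 7 of 11 lay above 0 in CD8 T cells, with a median of 0.02. In non-cycling T cells 4 of 11 did, with a median of -0.06.

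The immunosubunits were also set against their constitutive counterparts within each library. The log2 ratio of summed Psmb8, Psmb9 and Psmb10 UMIs to summed Psmb5, Psmb6 and Psmb7 UMIs differed between SOX17KO and Control by -0.54, -0.10 and 0.01 in the 3 collections over all cells. The mean was -0.21 ± 0.29 (SD, n = 3; two-sided exact sign-flip permutation test, p = 0.5, with 0.25 the smallest p that 3 pairs allow). In T cells the differences were -0.55, -0.18 and -0.01, lower in SOX17KO in all 3 pairs, with a mean of -0.25 ± 0.27 (exact permutation p = 0.25). In monocytes and macrophages the differences were -0.67, -0.08 and -0.17, with a mean of -0.31 ± 0.32 (exact permutation p = 0.25). In the untimed pair, with its unlike mix of these cells, monocytes alone had a log2 ratio of 0.66 in SOX17KO and 1.00 in Control. The mean was below 0 in each of the 10 classes compared, from -0.13 ± 0.13 in NK cells to -0.42 ± 0.57 in B cells. The adjusted p was 0.5 in each. In all cells, NK cells, dendritic cells, B cells and regulatory T cells, 1 of 3 pairs lay above 0, and in the remaining classes none did. Several classes reuse the same cells, as CD8 and regulatory T cells are subsets of the T cells, so the 10 means are not separate pieces of evidence. The untimed pair gave the widest difference in all cells, T cells, monocytes and macrophages, and dendritic cells.

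Across cell classes, with both genotypes pooled, cDC1, cDC2 and mature DC had the highest mean levels of proteasome mRNA. UMIs were counted at transcript ends and were not scaled by length, so shares are compared between classes rather than levels between genes. The 37 members summed to 8478 ± 2288 CPM in cDC1 (SD over 6 libraries, as below unless given), the dendritic cells specialised in cross-presentation, and to 7188 ± 2359 CPM in cDC2 and 7055 ± 2342 CPM in mature DC. Monocytes had 6392 ± 1771 CPM and macrophages 6101 ± 2100 CPM (5 libraries). Among lymphocytes, regulatory T cells had 5338 ± 1523 CPM, NK cells 4308 ± 1504 CPM and B cells 3526 ± 1234 CPM. Neutrophils had 2958 ± 1297 CPM (5 libraries). Plasma cells had 2881 ± 593 CPM, ILC 2798 ± 318 CPM and pDC 5152 ± 211 CPM in 2 libraries each, so these are not ranked with the rest. In the untimed libraries, the only ones with enough plasma cells and ILC, B cells had 2475 CPM in SOX17KO and 2897 CPM in Control. Among the ranked classes named, neighbours differed by less than the larger of their SDs.

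The interferon-inducible genes each had their highest class means among dendritic cells or monocytes. Psmb8 averaged 1167 ± 410 CPM in cDC1, 1080.0 ± 576.5 CPM in mature DC and 786 ± 333 CPM in cDC2, and 266 ± 141 CPM in fibroblasts. Psmb9 averaged 618 ± 179 CPM in cDC1 and 496 ± 202 CPM in mature DC. Psmb10 did not follow: its highest means were 285.5 ± 166 CPM in monocytes and 258 ± 130 CPM in macrophages. Psme1 averaged 787 ± 213 CPM in mature DC and 746 ± 196 CPM in cDC1. Psme2 averaged 683 ± 408 CPM in mature DC and 289 ± 186 CPM in cDC1, and 16.2 ± 14.7 CPM in plasma cells. Both plasma libraries were untimed, the collection with the lowest Psme2 over all cells, so class and collection cannot be told apart there. Psme3 ran otherwise, with 53.9 ± 25.0 CPM in cycling CD8 T cells, 18.2 ± 4.3 CPM in mature DC and 13.2 ± 4.4 CPM in neutrophils. Here the SDs are over 5 libraries in fibroblasts, macrophages and neutrophils, 4 in cycling CD8 T cells and 2 in plasma cells. The SDs include the spread between collections and genotypes.

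The share of immunosubunits among the 6 catalytic genes had another order. Neutrophils, low in all subunits together, had a mean share of 82.4% ± 5.2 (SD, 5 libraries), beside mature DC with 80.3% ± 7.3 and cDC1 with 77.1% ± 1.6 (6 libraries each). Their order is not given, since the untimed SOX17KO library, with 66.0% in mature DC, had too few neutrophils, and in the other 5 libraries the shares ran from 80.5% to 85.7% in mature DC and from 74.3% to 87.3% in neutrophils. Regulatory T cells had 74.2% ± 4.6, monocytes 72.1% ± 6.6, cDC2 71.5% ± 4.9 and NK cells 67.6% ± 1.5 (6 libraries each). Cycling CD8 T cells had 66.1% ± 5.2 and non-cycling CD8 T cells 71.0% ± 3.6 (4 libraries each). Fibroblasts had the lowest mean, 62.9% ± 3.5 (5 libraries), and the other classes lay between.

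**Figure D3:**
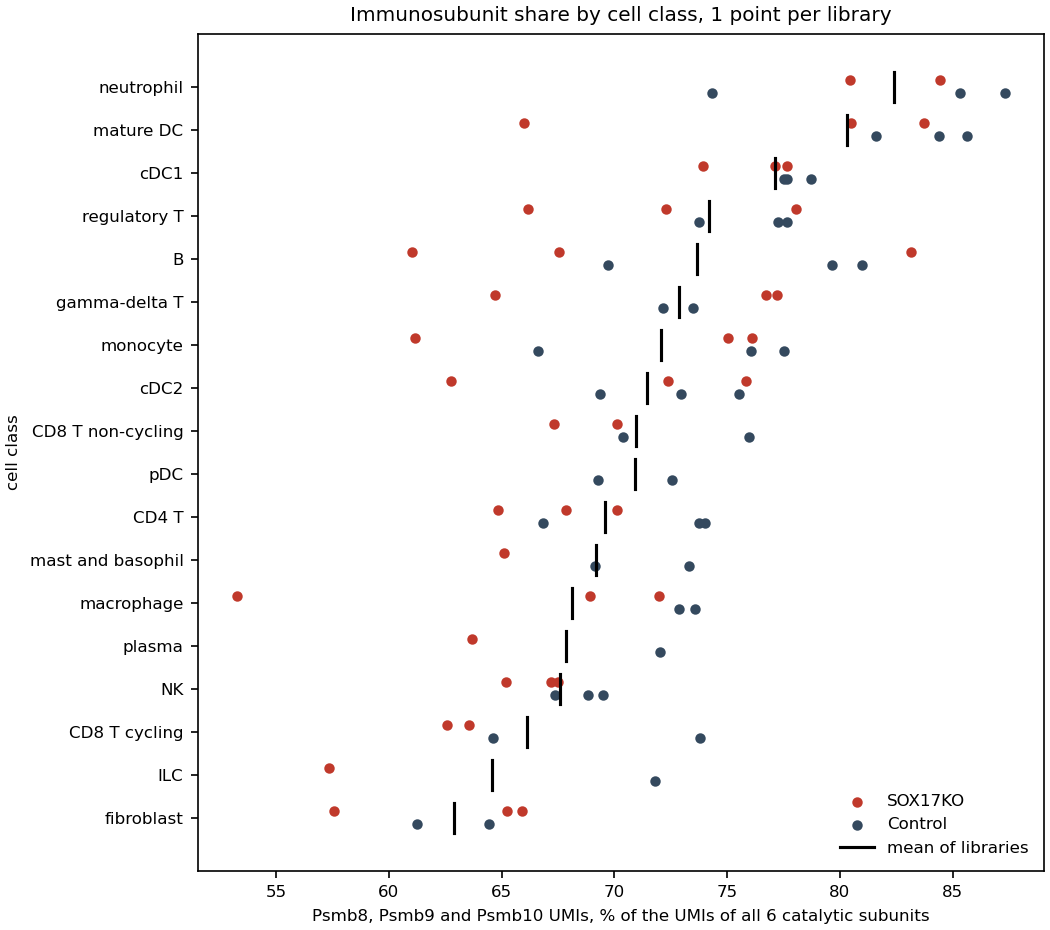
Share of Psmb8, Psmb9 and Psmb10 UMIs among the UMIs of the 6 catalytic genes (horizontal axis, percent) by cell class (vertical axis), 1 point per SOX17KO (red) or Control (dark) library with at least 20 cells of the class, and a bar at the mean. Class means, taken over unlike sets of libraries, lie between 82.4% in neutrophils and 62.9% in fibroblasts, and the points of neighbouring classes overlap.

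Whether the share differed between classes was tested within libraries, over 9 pairs of classes. The log2 ratio of immunosubunits to counterparts was higher in mature DC than in cDC2 in 6 of 6 libraries, by 0.75 ± 0.39 (two-sided exact sign-flip permutation test, p = 0.03125, adjusted over the 9 contrasts 0.1125). It was higher in cDC1 than in cDC2 in 6 of 6 libraries, by 0.42 ± 0.25 (exact permutation p = 0.03125, adjusted 0.1125). In neutrophils it exceeded that of monocytes in 5 of 5 libraries, by 0.73 ± 0.29, and in macrophages it was below that of monocytes in 5 of 5, by -0.35 ± 0.11 (exact permutation p = 0.0625, the smallest that 5 libraries allow, adjusted 0.1125 in both). Cycling CD8 T cells were below non-cycling CD8 T cells in 4 of 4 libraries, by -0.32 ± 0.14 (exact permutation p = 0.125, the smallest that 4 allow). No contrast passed the adjusted threshold, and with 4 to 6 libraries each none could have. The smallest p that 6 libraries allow is 0.03125, which is too large after adjustment over the 9 contrasts. The adjusted values therefore do not decide whether the share differed.

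The 3 partner pairs did not move alike. In mature DC against cDC2, the log2 ratio of Psmb8 to Psmb5 was higher by 1.05 ± 0.39 and that of Psmb9 to Psmb6 by 1.13 ± 0.33, in 6 of 6 libraries each, while that of Psmb10 to Psmb7 differed by -0.23 ± 0.43 and was higher in 2 of 6. In neutrophils against monocytes the same 3 differences were 0.86 ± 0.26, 1.81 ± 0.99 and -0.57 ± 0.66. In cDC1 against cDC2 they were 0.37 ± 0.15, 0.81 ± 0.41 and -0.13 ± 0.85. NK cells showed the opposite split against non-cycling CD8 T cells, with -0.30 ± 0.31 for Psmb8 to Psmb5, -0.74 ± 0.34 for Psmb9 to Psmb6 and 0.54 ± 0.20 for Psmb10 to Psmb7, the last higher in 4 of 4 libraries. The smallest exact permutation p among these was 0.03125, the smallest that 6 libraries allow, with an adjusted p of 0.1406. Here too the adjusted threshold was out of reach. A difference between partner pairs was not itself tested.

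**Figure D4:**
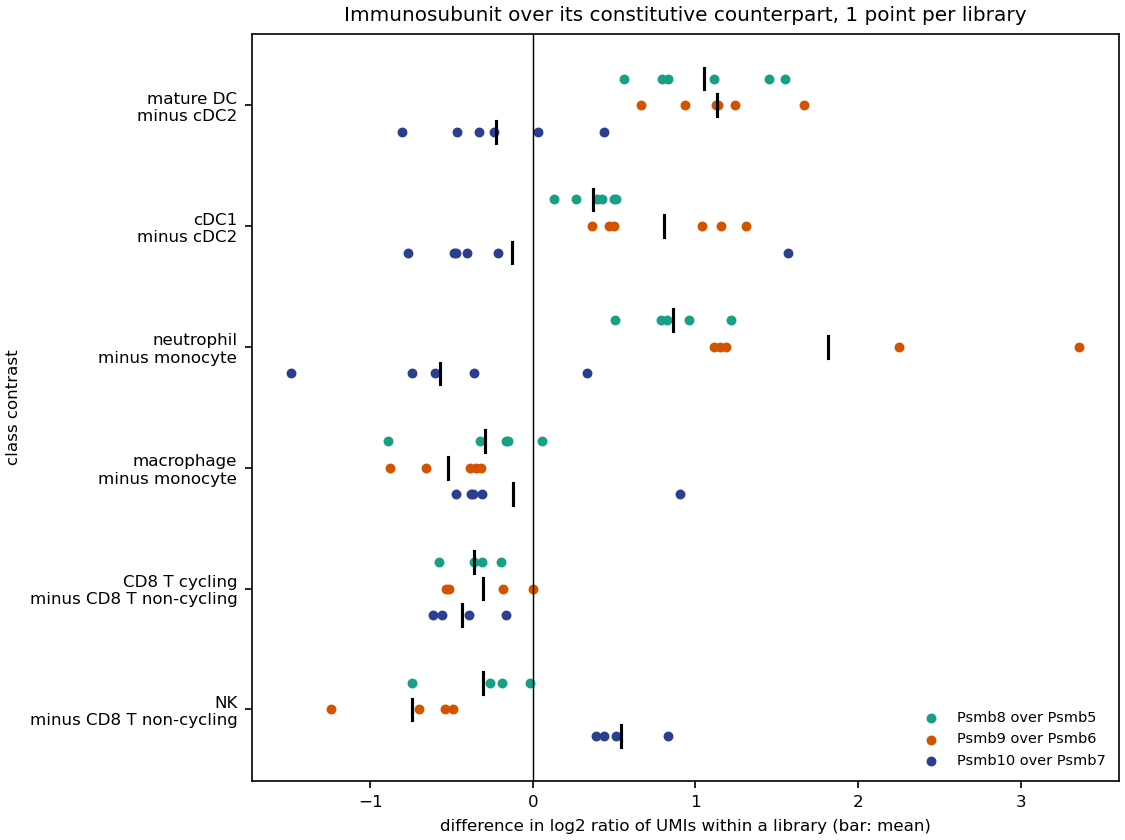
Difference between 2 classes of a library in the log2 UMI ratio of an immunosubunit to its constitutive counterpart (horizontal axis), for 6 class contrasts (vertical axis) and the 3 partner pairs (colours), 1 point per library with a bar at the mean. In mature DC minus cDC2 the Psmb8 and Psmb9 pairs lie above 0 in 6 of 6 libraries and the Psmb10 pair in 2 of 6.

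Gene by gene, mature DC had more mRNA of the interferon-inducible members other than Psmb10, and less of many others, than cDC2 of the same libraries. By edgeR with library as a term, 4 members were higher in mature DC (24.2% of genes), all interferon-inducible, and 13 lower (25.2% of genes). Of all members tested, the 4 are a share below that of all genes and the 13 a share above it. Psme2 rose most, with 69.2, 887 and 735 CPM in mature DC of SOX17KO (untimed, 1 week, 2 weeks) against 12.2, 407 and 210.4 CPM in cDC2, and 335, 1178 and 896 CPM in mature DC of Control against 92.8, 496 and 384 CPM in cDC2. Mature DC were above cDC2 in each library, with a log2 fold change of 1.62 (standard error 0.15, edgeR adjusted p 2.64e-06). Psmb9 (0.79, standard error 0.13, edgeR adjusted p 0.000293), Psme1 (0.72, 0.12, 0.000332) and Psmb8 (0.56, 0.15, 0.00637) rose as well. Psmb8 went the other way in the untimed SOX17KO library, with 346 CPM in mature DC and 439 CPM in cDC2. Psmb10 was not called (-0.10, 0.16, edgeR adjusted p 0.62).

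The 13 that fell in mature DC were Psma3, Psma4, Psma7, Psmb2, Psmb3, Psmb4, Psmb5, Psmb6, Psmd2, Psmd6, Psmd8, Psmd12 and Psme3. Psmb5 had 58.6, 128 and 75.5 CPM in mature DC of SOX17KO against 109.7, 199 and 124 CPM in cDC2, and 99.0, 189.7 and 105 CPM in mature DC of Control against 185.5, 249 and 145 CPM in cDC2, so it was lower in mature DC in each library. Its log2 fold change was -0.48 (standard error 0.14, edgeR adjusted p 0.0119), beside -0.76 for Psma4 (0.14, 0.000776) and -0.79 for Psme3 (0.24, 0.0146). The median was 0.72 over the 5 and -0.33 over the others, beside -0.02 over all genes. Of the peptide-loading list 7 of 11 genes rose and 3 fell (Calr, Canx and Pdia3, which are chaperones of the endoplasmic reticulum), and of the interferon-gamma list 6 of 11 rose and 2 fell, while of 13 tested assembly genes 2 rose and 3 fell. Marker genes of other cells moved with this contrast: the 8 neutrophil genes summed to a median of 57.0 CPM (41.4 to 223) in mature DC and 407 CPM (310 to 705) in cDC2, with 2 at 0 in mature DC and 1 in cDC2. The 8 macrophage genes summed to 172.5 CPM (6.57 to 265) in mature DC and 359 CPM (97.2 to 484) in cDC2, with 0 at 0 in either. The 8 epithelial genes summed to 1.45 CPM (0 to 7.26) in mature DC and 111 CPM (0 to 189) in cDC2, with 4 at 0 in each. Cells in cycle made up 2.44% to 3.85% of mature DC and 3.85% to 23.8% of cDC2 by library. The part of these markers and of cycling in the result was not tested. Without library as a term 3 members were called, and leaving out the 1-week collection left 6.

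Cycling CD8 T cells had more mRNA of most subunits than non-cycling ones, with Psmb8 and Psmb9 called among the 5 interferon-inducible members. Of 37 members 26 rose (11.5% of genes) and 0 fell (9.31% of genes). Psmc3, an ATPase, had 89.5 and 151 CPM in cycling cells of SOX17KO (untimed, 2 weeks) against 58.2 and 62.2 CPM in non-cycling cells, and 104 and 114 CPM in cycling cells of Control against 67.3 and 61.8 CPM in non-cycling cells. Cycling cells were above non-cycling cells in all 4 libraries, with a log2 fold change of 0.80 (standard error 0.14, edgeR adjusted p 0.00422). Psma4 (0.74, standard error 0.11, edgeR adjusted p 0.00203), Psmb5 (0.69, 0.12, 0.00556) and Psmb6 (0.68, 0.12, 0.00474) were among those that rose, as were Psmb8 (0.35, 0.10, 0.0334) and Psmb9 (0.37, 0.09, 0.0232). Psmb10 (0.05), Psme1 (-0.05) and Psme2 (0.16) were not called. The median was 0.16 over the 5 and 0.51 over the others, beside -0.02 over all genes. Cells differed in depth, with library medians of 7510.0 to 13346.5 UMIs per cycling cell and 3318.5 to 5330.0 UMIs per non-cycling cell, and the part of depth in the result was not tested. The count was 2 without library as a term, 8 without the 2-week collection and 31 without the untimed pair.

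Macrophages had less of the immunosubunits than monocytes. Psmb8 (-0.35, standard error 0.10, edgeR adjusted p 0.0227), Psmb9 (-0.29, 0.10, 0.0496), Psmb10 (-0.37, 0.12, 0.033) and Psma7 (-0.45, 0.10, 0.00596) fell (14.3% of genes), and Psmd1, a large scaffold subunit of the 19S base, rose (0.30, 0.08, 0.0116; 17.6% of genes). In both directions the called members are a share below that of all genes. Psmb8 had 148.5, 681 and 321 CPM in macrophages of SOX17KO (untimed, 1 week, 2 weeks) against 283, 787 and 440.3 CPM in monocytes, and 771 and 561 CPM in macrophages of Control (1 week, 2 weeks) against 910.1 and 606.5 CPM in monocytes. For Psmb8, macrophages were below monocytes in each of the 5 libraries. Psmb10 went the other way in the untimed SOX17KO library, where it rests on few UMIs. Of the interferon-gamma list 8 of 11 genes fell as well, and 0 rose. The count of called members was 0 without library as a term and 0 without the 1-week collection, 11 without the untimed pair, and 7 without the 2-week collection.

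Between regulatory T cells and CD4 T cells no member was called, by edgeR (0 members, beside 8.28% of genes) or by DESeq2 (0 members). One member, Psme2, had an unadjusted edgeR p under 0.05, with a log2 fold change of 0.28 and an adjusted p of 0.243. The log2 ratio of immunosubunits to counterparts was higher in regulatory T cells in 5 of 6 libraries. The mean difference was 0.34 ± 0.29 (exact permutation p = 0.0625, adjusted 0.1125).

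In 5 further contrasts, added after the ratios were seen, the counts stood above the share of all genes in some and below it in others. In cDC1 against cDC2, Psmb9 (0.92, standard error 0.11, edgeR adjusted p 2.31e-05), Psmb8 (0.53, 0.09, 0.000338), Psme1 (0.43, 0.08, 0.00119) and Psma3 (0.33, 0.09, 0.00964) rose (12.7% of genes) and Psmd8 fell (15.5% of genes). For cDC1 the called members are a share below that of all genes in both directions. In neutrophils against monocytes 32 members fell (30.0% of genes) and 0 rose (29.5% of genes), and Psmb9, Psme2, Psmc6, Psmd4 and Psmd11 were not called. There the median was -0.44 over the 5 and -1.04 over the others, beside -0.09 over all genes, and library medians of UMIs per cell were 1297 to 2153 in neutrophils and 3545 to 6609.5 in monocytes of the libraries compared, a difference whose part was not tested. In NK cells against non-cycling CD8 T cells Psmb8 (-0.44) and Psmb9 (-0.69) fell, and no other member was called, lower (9.18% of genes) or higher (9.47% of genes), so the 2 members are a share below that of all genes. In B cells against non-cycling CD8 T cells 14 members fell (20.0% of genes), among them Psmb8 (-1.05), Psmb10, Psme1 and Psme2, and 0 rose (16.3% of genes). In fibroblasts against macrophages 15 members fell, all 5 interferon-inducible ones included (27.0% of genes), with Psme1 at -1.15, and Psmd3 and Psmd7 rose (30.8% of genes). The fibroblast-gated cells also held B cell marker genes, at a summed median of 948 CPM and a maximum of 989 CPM, and their part was not tested. Without library as a term the counts were 0 in cDC1, 0 in NK cells and 2 in fibroblasts. Leaving out the untimed pair left 1 member in NK cells and 5 in B cells, leaving out the 2-week collection left 0 in NK cells and 7 in fibroblasts, and leaving out the 1-week collection left 9 in fibroblasts.

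**Figure D5:**
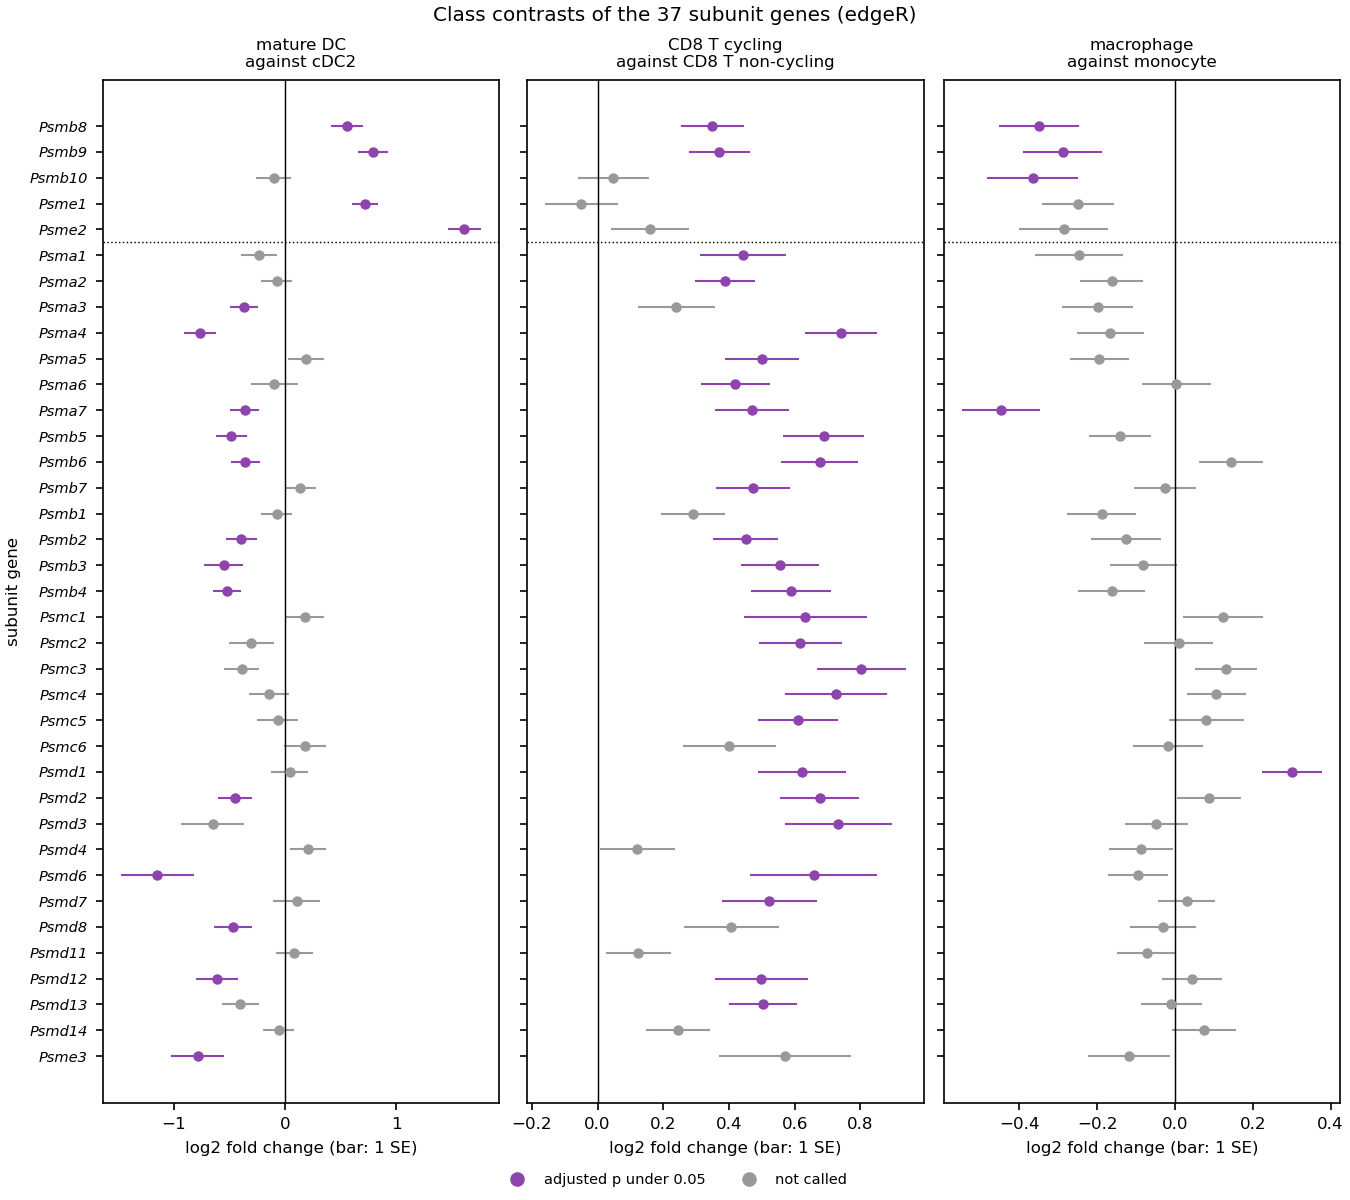
EdgeR log2 fold change with 1 standard error (horizontal axis, a separate scale in each panel) of the 37 genes (vertical axis, interferon-inducible members above the dotted line) in 3 class contrasts, purple at an adjusted p under 0.05 and grey otherwise. Mature DC show 4 of the 5 interferon-inducible members to the right and 13 others called to the left of 0, and cycling CD8 T cells show 26 called genes, all to the right.

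Between the dated collections the immunosubunits summed over all cells were lower at 2 weeks than at 1 week in both genotypes. There was 1 library per genotype and time and so no test. Psmb10 had 124 CPM at 2 weeks and 369.9 CPM at 1 week in SOX17KO (log2 ratio -1.58, -1.64 to -1.52), and 153 CPM at 2 weeks and 419.9 CPM at 1 week in Control (-1.46, -1.51 to -1.41). Psmb9 had 228 CPM at 2 weeks and 329 CPM at 1 week in SOX17KO, and 319 CPM at 2 weeks and 384 CPM at 1 week in Control, a smaller gap. Over all cells the median log2 ratio in SOX17KO was -1.01 over the 5 and -0.72 over the others, beside 0.33 over all genes, and in Control -0.72 and -0.51, beside 0.27. In monocytes and macrophages of Control the medians were -0.10 over the 5 and -0.41 over the others, and Psme1 had 637 CPM at 2 weeks and 614 CPM at 1 week. In T cells the medians over the 5 were -1.26 in SOX17KO and -1.01 in Control. The cell mix differed as well. T cells numbered 155 at 1 week and 728 at 2 weeks in SOX17KO, and 124 and 2014 in Control. Monocytes and macrophages numbered 4226 and 940 in SOX17KO, and 3329 and 1143 in Control. The part of this mix in the all-cell values was not tested. Time, collection and library cannot be told apart here.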

How the data were processed

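Cells of 6 libraries were counted by the authors, who deposited raw UMI counts per gene and barcode (Cell Ranger 6.0.1 and mm10, per the submitters' processing notes; 7.0.1, per the file headers). Whether intronic reads were counted is not stated there. Barcodes with at least 200 genes and at most 10% mitochondrial UMIs were kept. A cell joined a class with at least 3 of its markers and a lead of 2 over the next lineage; cells with mixed markers stayed ungated, and no doublet caller was run. A class entered a comparison in a library with at least 20 cells. Members, lists and markers were chosen with earlier results of these data known. By rule, values per library were for the 5 interferon-inducible members, Psmb5, Psmb6, Psmb7, Psme3 and members past the test; other members named with values (Psma2, Psma7, Psmc1, Psmc4) were chosen after their values were seen.

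UMIs were summed per library and class and tested with edgeR 4.0.16 (quasi-likelihood, TMM, filterByExpr; R 4.3.3, limma 3.58.1), p-values adjusted by Benjamini-Hochberg over all genes tested. Genotype fits had collection, and class fits library, as a term. SOX17KO and Control libraries of a collection share its label, which gives the pairing. Standard errors are the log2 fold change divided by the square root of F. P-values measure the spread between libraries of pooled mice. Pair log2 ratios have exact conditional binomial intervals (95%), shares Clopper-Pearson intervals, for counting error only. Immunosubunit ratios were tested by exact sign-flip permutation (scipy 1.17.1, Python 3.11.15). The steps were tested on simulated data. DESeq2 1.42.0, other gates and filters, and leaving out collections were alternatives.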

Additional observations from a re-analysis of the deposited data

Results flagged for a closer look

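In 2 of 45 differences checked for a library far from the others, 1 library stood apart, and chance alone flags about 1 group in 20. Both were the Psmb10 to Psmb7 ratio in the untimed SOX17KO library. The log2 difference in macrophages minus monocytes was 0.91 there, against -0.47 to -0.31 in the other 4 libraries; it rests on 30 Psmb10 and 24 Psmb7 UMIs in 61 macrophages and 6 and 9 UMIs in 27 monocytes. The log2 difference in cDC1 minus cDC2 was 1.57 there, against -0.77 to -0.21 in the other 5 libraries; it rests on 59 Psmb10 and 53 Psmb7 UMIs in 72 cDC1 and 6 and 16 UMIs in 21 cDC2.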

How the results depend on the processing

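Between the genotypes, the count of called members was 0 by edgeR and stayed 0 in 95 settings, against 8 in which it moved. Without the filter on low counts it was 3 in T cells (among 508 genes called), 1 in NK cells (87), 5 in dendritic cells (307), 1 in CD8 T cells (243), 1 in regulatory T cells (60), 3 in non-cycling T cells (435) and 1 in non-cycling CD8 T cells (390), and leaving out a collection gave 0 to 1 in NK cells; the cause was not tested. Among class contrasts, the fit with no replicate block (no library term) called 2 members in cycling CD8 T cells, 0 in macrophages, 3 in mature DC, 0 in cDC1, 0 in NK cells and 2 in fibroblasts. Macrophages against monocytes also gave 9 without the filter, 8 with a gate lead of 1 marker and 8 with a lead of 3. Leaving out a collection gave 8 to 31 members in cycling CD8 T cells, 0 to 11 in macrophages, 6 to 10 in mature DC, 0 to 1 in regulatory T cells, 0 to 1 in NK cells, 5 to 11 in B cells and 7 to 20 in fibroblasts. The log2 ratio of immunosubunits to counterparts changed sign between the genotypes with Psmb8 against Psmb5 in NK cells (0.20) and with the activators Psme1 and Psme2 against Psme3 in B cells (0.30). With Psmb10 against Psmb7 it did so in NK cells minus CD8 T cells (0.54), neutrophils minus monocytes (-0.57), cDC1 minus cDC2 (-0.13), mature DC minus cDC2 (-0.23) and fibroblasts minus macrophages (0.14). In B cells minus CD8 T cells it became 0.0085 with a gate lead of 1 marker and 0.25 with Psmb9 against Psmb6, and ranged from -0.43 to 0.27 when a collection was left out. Without the untimed pair the fitted median over the 5 interferon-inducible members was -0.32 in all cells, -0.36 in T cells, -0.38 in non-cycling T cells and -0.34 in monocytes and macrophages, against -0.60, -0.66, -0.63 and -0.59 with it. Of single members, the fitted log2 fold change of Psme1 ran from -0.37 to 0.011 in T cells and from -0.42 to 0.11 in regulatory T cells when a collection was left out. In neutrophils against monocytes DESeq2 set the median over all genes at -0.21, against -0.09 by edgeR, and called 35 members lower, against 32. The genotype fit in B cells at a mitochondrial limit of 5% could not be fitted, nor could CD8 T cells with 1 pair left out. With 3 pairs of libraries the exact tests could not go below p = 0.25.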
